A study of Rattus norvegicus with 4 samples.

Results

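Lymphocytes are the T, B and natural killer (NK) cells of the immune system, and 9 genes that mark them were followed in the carotid body (CB), the small neck organ in which glomus cells respond to low blood oxygen. They are Ptprc, Cd3e, Cd3d, Cd3g, Cd2, Cd4, Cd8a, Cd79b and Nkg7, taken by symbol from the 32883 genes of the table, and all 9 were listed there. RNA-seq was performed on CBs of Sprague Dawley rats at day 5 (neonates) and day 21 (adults, as the study calls them), untreated, with 2 libraries per age and 4 in all. Each library pooled CBs of 6 pups or 3 adults, of both sexes, according to the labels and the study's methods. The study's methods give larger pools and a further replicate per age, which was not analysed here, and p-values measure the spread between these pools. Some pups of a litter were raised to day 21, so the ages may share litters, and which pool came from which litter is not given. Whole CBs were used, so a lower level can come from fewer cells of a type or from less RNA per cell, and these cannot be told apart.

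T cells recognise antigen through a receptor whose signal is carried by the CD3 chains, encoded by Cd3e, Cd3d and Cd3g. CD4 and CD8 are the coreceptors for MHC class II and class I, CD2 is an adhesion receptor of T and NK cells, CD79B with CD79A carries the signal of the B cell receptor, and NKG7 lies in the granules of cytotoxic cells. Ptprc encodes CD45, the surface phosphatase of all leukocytes, and in the rat CD4 is also found on monocytes and macrophages, so neither gene is limited to lymphocytes.

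Cd3d and Cd3g are neighbours transcribed away from each other, with Cd3e beside them, and their upstream sequences are shown with that of Ptprc. Whether the sequences bear on the levels of these genes was not tested. The sequences are the 250 bases before the annotated start in RefSeq on GRCr8, an assembly other than the Rnor_6.0 used for mapping, and 7 of the 9 genes had an entry there. Capitals mark GGAAG on either strand, the core of sites bound by ETS factors such as PU.1.

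Ptprc (chr13:52259747-52259996, minus strand): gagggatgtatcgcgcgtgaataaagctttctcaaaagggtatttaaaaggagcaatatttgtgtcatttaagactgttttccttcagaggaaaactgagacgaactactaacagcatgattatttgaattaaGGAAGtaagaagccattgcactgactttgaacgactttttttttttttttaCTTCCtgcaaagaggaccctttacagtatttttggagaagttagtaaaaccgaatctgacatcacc

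Cd3e (chr8:54211771-54212020, minus strand): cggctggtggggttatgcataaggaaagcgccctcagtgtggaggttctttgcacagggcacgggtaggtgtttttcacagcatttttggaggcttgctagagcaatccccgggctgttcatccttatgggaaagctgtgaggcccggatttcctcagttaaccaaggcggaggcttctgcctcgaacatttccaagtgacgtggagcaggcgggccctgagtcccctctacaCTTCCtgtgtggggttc

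Cd3d (chr8:54185269-54185518, plus strand): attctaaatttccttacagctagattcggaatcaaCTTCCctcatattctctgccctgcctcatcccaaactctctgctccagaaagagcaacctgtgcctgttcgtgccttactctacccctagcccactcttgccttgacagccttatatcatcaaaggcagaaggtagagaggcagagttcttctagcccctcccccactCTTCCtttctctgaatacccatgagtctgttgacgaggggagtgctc

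Cd3g (chr8:54183919-54184168, minus strand): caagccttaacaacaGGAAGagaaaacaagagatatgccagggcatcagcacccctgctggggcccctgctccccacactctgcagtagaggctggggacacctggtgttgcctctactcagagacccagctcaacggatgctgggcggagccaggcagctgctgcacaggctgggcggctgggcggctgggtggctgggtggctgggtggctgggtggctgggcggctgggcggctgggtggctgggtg

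Ptprc and Cd3d had 2 matches each and Cd3e and Cd3g had 1 each, and 63.3% of all 33469 upstream windows of the same length hold at least 1. The longer AGGAAGT, which contains the shorter motif, was searched on both strands and occurred 2 times for Ptprc, 1 time for Cd3e and not in the windows of Cd3d or Cd3g, against 7.08% of all windows. The GC content was 66.4% upstream of Cd3g and 49.6% upstream of Cd3d. In that RefSeq table none of the 9 genes overlaps another gene, and none of the 9 had a fractional estimated count.

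Depth was similar in the 4 libraries, with total estimated counts between 36286191 and 39476110, so that 3 counts, taken as the floor of detection, correspond to 0.0760 to 0.0827 CPM, counts scaled to a common library total. Intervals and floors cover counting error only. The glomus cell markers Th, Ddc and Dbh, which encode enzymes of catecholamine synthesis, were high in every library, and Th lay between 781 and 1517 CPM. Parathyroid RNA was present in both neonatal libraries, where Pth, the parathyroid hormone gene, reached 1595 CPM (replicate 1) and 194 CPM (replicate 2), and no adult library held a count of it. Red cell genes were also higher in neonates, at a summed 11664 and 6868 CPM against 3040 and 2691 CPM, and neonate replicate 1 was the highest library in both lists. The part of either in the results was not tested, and values without neonate replicate 1 are given beside the main results on the 9 genes. Neonates and adults were compared with edgeR's quasi-likelihood test on all genes, with positive log2 fold changes meaning a higher level in adults. A call needed a change of at least 2-fold with a p, adjusted by Benjamini-Hochberg, under 0.05. Normalization by TMM, which corrects for a few abundant genes taking a large share of the reads, left the median over the genes tested at 0.0029 on the log2 scale, and scaling to library size alone moved it to 0.25.

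The test took genes that reached 1 CPM in at least 2 libraries. Of the 9 genes 2 did so, and both were called higher in adults, where 13.2% of the 13843 genes tested were called higher and 7.68% lower. These were Ptprc and Cd4, the genes that cells other than lymphocytes also express. Cd4 reached 1 CPM in the adult libraries only, and a gene that enters the test through a single age had to differ, so the count of 2 is a description. The other 7 stayed below this level, and 5 of the 9 genes had at least 1 library at or under the floor. The plot of CPM by library shows both patterns.

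**Figure D1:**
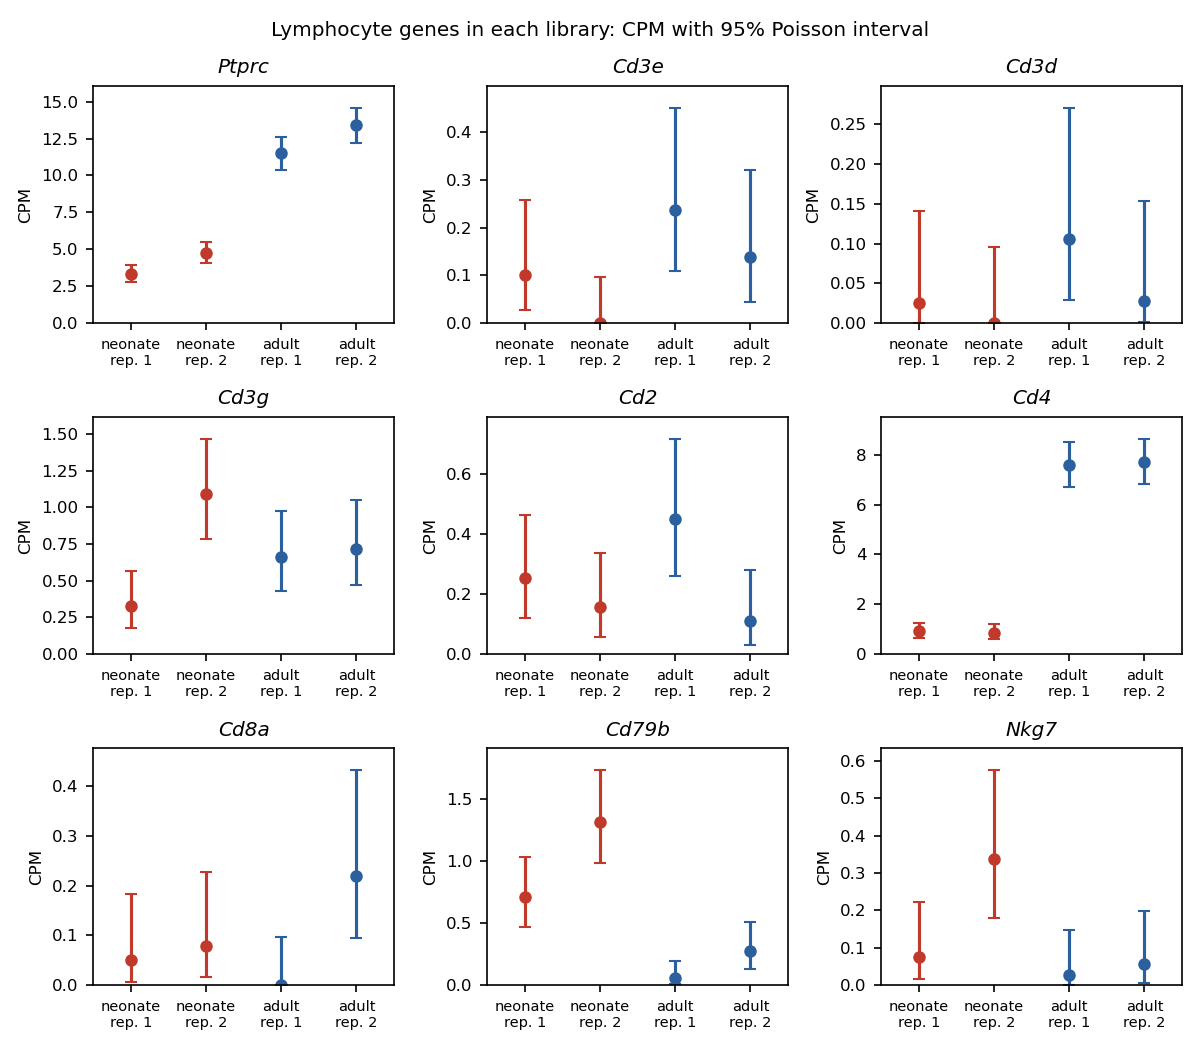
CPM of the 9 lymphocyte genes in each library, with neonates in red and adults in blue, points for single libraries and bars for the 95% exact Poisson interval of the count. Ptprc and Cd4 separate the ages by more than these intervals, Cd79b is higher in neonates, and Cd3e, Cd3d, Cd2 and Cd8a reach at most 0.45 CPM in any library.

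Ptprc (ENSRNOG00000000655) had 130 and 183 counts in the neonatal libraries and 433 and 486 in the adult libraries, or 3.29, 4.75, 11.5 and 13.4 CPM. Both adult libraries lay above both neonatal ones, and the means were 4.02 ± 1.03 CPM in neonates and 12.4 ± 1.37 CPM in adults (SD, n = 2 libraries). The log2 fold change was 1.38, or 2.61-fold (standard error 0.23, adjusted p = 0.00076 by edgeR's quasi-likelihood test). Leaving out neonate replicate 1, the library with the most parathyroid RNA, gave 1.16 with an adjusted p of 0.00068 in edgeR.

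Cd4 (ENSRNOG00000016294) had a larger fold change. Its counts were 36 and 33 in neonates and 286 and 279 in adults, or 0.912, 0.857, 7.57 and 7.69 CPM. Libraries of an age were close to each other, with means of 0.884 ± 0.0389 and 7.63 ± 0.0838 CPM (SD, n = 2 libraries), and the ages did not overlap. The log2 fold change was 2.86, or 7.25-fold (standard error 0.28, adjusted p = 4.1e-05 by edgeR's quasi-likelihood test), and 2.93 without neonate replicate 1. In a fit with no filter on low counts, which Cd4 did not enter through a single age, it was 2.88 (adjusted p = 3e-05 in edgeR). With 2 libraries against 2, the two-sided p of a gene on its own in an exact permutation test cannot go below 0.333, so these p-values rest on the spread that edgeR shares across genes.

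Set against Ptprc in the same library, Cd4 gave 27.7 and 18.0 counts per 100 Ptprc counts in neonates and 66.1 and 57.4 in adults. This ratio was 2.76-fold higher in adults, a log2 difference of 1.46 with an SD of 0.33 between libraries of an age (two-sided exact permutation p = 0.333, the smallest this design allows). Set against the summed counts of 17 other leukocyte genes, the log2 difference of Cd4 was 2.35. Cd48 made up most of that sum in every library, with 7527 and 7755 counts in neonates and 12455 and 13427 in adults. Cd79b and Cd3g went the other way relative to Ptprc, as the plot of these ratios shows. For Cd3g the counts over an age were alike, 55 in neonates and 51 in adults, while Ptprc had 313 and 919.

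**Figure D2:**
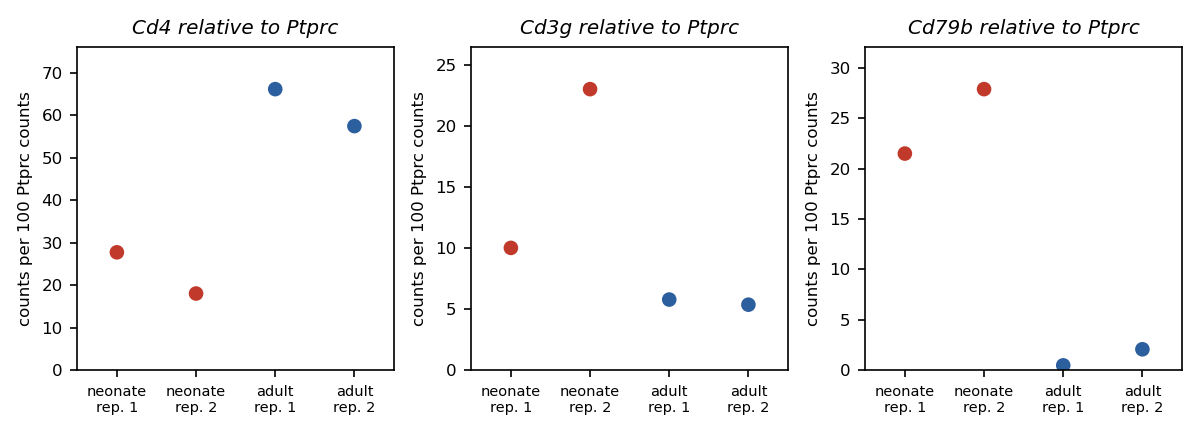
Counts of Cd4, Cd3g and Cd79b per 100 counts of Ptprc in each library, with neonates in red and adults in blue and a point for each library. Cd4 lies at 18.0 and 27.7 in neonates and at 57.4 and 66.1 in adults, and Cd79b at 21.5 and 27.9 in neonates and at 0.462 and 2.06 in adults. The ratios are not corrected for gene length.

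The CD3 chains were close to the floor in all libraries or differed between libraries of the same age. Cd3e (ENSRNOG00000016069) had 4 and 0 counts in neonates and 9 and 5 in adults, and Cd3d (ENSRNOG00000015994) had 1 and 0 in neonates and 4 and 1 in adults. Over both libraries of an age this was 4 counts of Cd3e against 14, a ratio of 3.69 toward adults at equal depth with an exact 95% counting interval from 1.16 to 15.4. For Cd3d the same ratio was 5.26 with an interval from 0.589 to 249, so a difference was not detectable at this depth. With each library left out in turn and no filter, log2 fold changes ran from 0.63 to 5.79 for Cd3e and from 0.74 to 4.35 for Cd3d, the highest of both without neonate replicate 1. Cd3g (ENSRNOG00000015945) did not follow them. It had 13 counts in neonate replicate 1, 42 in neonate replicate 2, and 25 and 26 in adults.

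The exact Poisson intervals of Cd3g in the neonatal libraries, 6.92 to 22.2 and 30.3 to 56.8 counts, did not overlap, so these libraries differed from each other by more than counting error. In neonate replicate 2, the library with 42 counts of Cd3g, both Cd3e and Cd3d had 0 counts. The exact Poisson interval of each ran from 0 to 3.69 counts, or up to 0.0958 CPM. Both adult libraries fell between the neonatal ones, and over an age Cd3g had 55 and 51 counts, a ratio of 0.976 for adults over neonates with an interval from 0.654 to 1.46.

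Cd2 and Cd8a did not part the ages. Cd2 (ENSRNOG00000015821) had 10, 6, 17 and 4 counts in the order neonate replicates 1 and 2 and adult replicates 1 and 2, with the highest and the lowest value both in adults. Cd8a (ENSRNOG00000007178) had 2 and 3 counts in neonates and 0 and 8 in adults. Its log2 fold change of 0.52 had a standard error of 1.72 in a fit with no filter on low counts, and a difference from Cd4 was not tested. Cd8b, the partner chain of Cd8a and named after its values were seen, had 0 counts in both neonatal libraries and 3 and 2 in adults.

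Cd79b (ENSRNOG00000011917) was higher in neonates, at 28 and 51 counts against 2 and 10 in adults, or 0.709, 1.32, 0.0529 and 0.276 CPM. The ages did not overlap. It reached 1 CPM in 1 library and was not among the genes tested, but in the planned fit with no filter on low counts it was called lower in adults, at -2.83 on the log2 scale (SE 0.82, adjusted p = 0.019 by edgeR's quasi-likelihood test). In that fit 5.84% of 19411 genes were called lower in adults and 10.2% higher. The call was lost without neonate replicate 2 (-2.35, adjusted p = 0.087 in edgeR) and without adult replicate 1 (-2.09, adjusted p = 0.12 in edgeR), and the value was -4.37 without adult replicate 2 and -3.19 without neonate replicate 1.

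Nkg7 (ENSRNOG00000017749) had 3 and 13 counts in neonates and 1 and 2 in adults. Over an age this was 16 against 3, a ratio of 5.07 toward neonates with a counting interval from 1.45 to 27.1, and neonate replicate 2 held most of it. The fit with no filter did not call it (log2 fold change -2.45, standard error 1.47, adjusted p = 0.22 by edgeR's quasi-likelihood test), and the value was -3.15 without neonate replicate 1 and -1.09 without neonate replicate 2. In the same fit Cd3e, Cd3d, Cd3g, Cd2 and Cd8a had log2 fold changes from -0.25 to 1.94 with standard errors from 0.66 to 2.13, and none was called. With no filter and without neonate replicate 1, Cd3g was at -0.85, Cd2 at 0.65 and Cd8a at 0.27.

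By CPM alone, 6 of the 9 genes did not overlap between ages, 4 with adults higher and 2 with neonates higher, against 70.3% of the 19411 genes with any count. For Cd3d this rests on 1 count in neonate replicate 1 and 1 in adult replicate 2, which differ in CPM through depth. The share is near that of all genes.

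Other genes of T cell receptor signalling moved in both directions. Of 25 in a list, 10 were tested, and 1 was called higher in adults and 2 lower. Over all genes 13.2% of those tested were called higher and 7.68% lower, or 10.2% and 5.84% with no filter. Counts of calls in this and the following lists stand beside these shares and are descriptions. The median log2 fold change of the list was -0.04 against 0.0029 over all genes tested. Without the filter the median was 0.12 against 0.016. The gene called higher entered the test through the adult libraries alone. Lat, the adaptor that the receptor kinases phosphorylate, was lower in adults, with 206 and 269 counts against 98 and 78 (log2 fold change -1.60, adjusted p = 0.00092 by edgeR's quasi-likelihood test), and Gata3, a transcription factor of T helper cells and of sympathetic neurons, was at -1.51 (adjusted p = 0.0060 in edgeR). Gata3 had 453 and 206 counts in neonates and 148 and 114 in adults. Its highest count was in neonate replicate 1, the library with the most parathyroid RNA, and the part of parathyroid tissue in its level was not tested. Lck, the first kinase of the pathway, had 175, 135, 191 and 161 counts and a log2 fold change of 0.01. Whole CBs were used, and the part of cells other than T cells in the levels of Lat and Lck was not tested. The higher call was lost without adult replicate 2, and Gata3 was under 2-fold, at -0.82, without neonate replicate 1.

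With no filter, the list had 1 gene called higher and 3 lower, the added gene being Foxp3, the transcription factor of regulatory T cells, named after its value was seen. Foxp3 had 31 and 61 counts in neonates and 11 and 14 in adults (log2 fold change -2.01, adjusted p = 0.021 by edgeR's quasi-likelihood test), and without neonate replicate 1 it was at -2.41 (adjusted p = 0.011 in edgeR). The call was lost at -1.46 without neonate replicate 2, -1.83 without adult replicate 1 and -2.21 without adult replicate 2 (adjusted p = 0.11, 0.13 and 0.081 in edgeR).

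Of 19 genes in the B cell list, 4 were tested and 2 called lower in adults, where 7.68% of all genes tested were. The median log2 fold change of the list was -0.76. Cd79a, the partner of Cd79b, had 44 and 40 counts in neonates and 25 and 14 in adults (log2 fold change -1.28, adjusted p = 0.035 by edgeR's quasi-likelihood test), and it reached 1 CPM in neonates only. It has fractional estimated counts, so its reads may have been split with another sequence. Cd72, a coreceptor of B cells, had 58 and 124 counts against 56 and 27 (log2 fold change -1.30, adjusted p = 0.041 in edgeR). Each library left out ended at least 1 of these calls, both were lost without adult replicate 2, and neither passed when scaled to library size alone, where 1 gene of the list was called higher in adults.

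With no filter on low counts, 6 of the 19 were called lower in adults by edgeR, against 5.84% of all genes in that fit. Of the 19, 16 had a negative log2 fold change, with a list median of -1.68 against 0.016 over all genes. Among the genes called, named after their values were seen, were Cr2 and Spib (adjusted p = 0.0015 and 0.0063 by edgeR's quasi-likelihood test). Pax5, Pou2af1 and Igll1 were called close to the threshold (adjusted p = 0.049, 0.045 and 0.047 in edgeR). With the replicate number added to that fit as a block, Pax5 and Igll1 were not called (adjusted p = 0.058 and 0.065 in edgeR). Spib, an ETS factor of B cells, had 25 and 54 counts against 5 and 1, and Pax5, the factor that sets B cell identity, had 5 and 20 against 0 and 1. Igll1, part of the receptor of B cell precursors, had 12 and 5 counts in neonates and 0 in both adult libraries.

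Among the neonates Cr2 was higher in replicate 1, at 151 counts against 23 in replicate 2, as was Igll1, whereas Cd79b, Spib and Pax5 were higher in replicate 2. The number of B cell genes called fell to 3 without adult replicate 2 and was 4 without neonate replicate 2, 4 without adult replicate 1 and 7 without neonate replicate 1. Among B cell genes that did not go this way, Cd37, which other leukocytes also express, was at 0.81 (adjusted p = 0.042 in edgeR), under 2-fold, and Blk had 8 and 10 counts in neonates and 20 and 25 in adults.

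**Figure D3:**
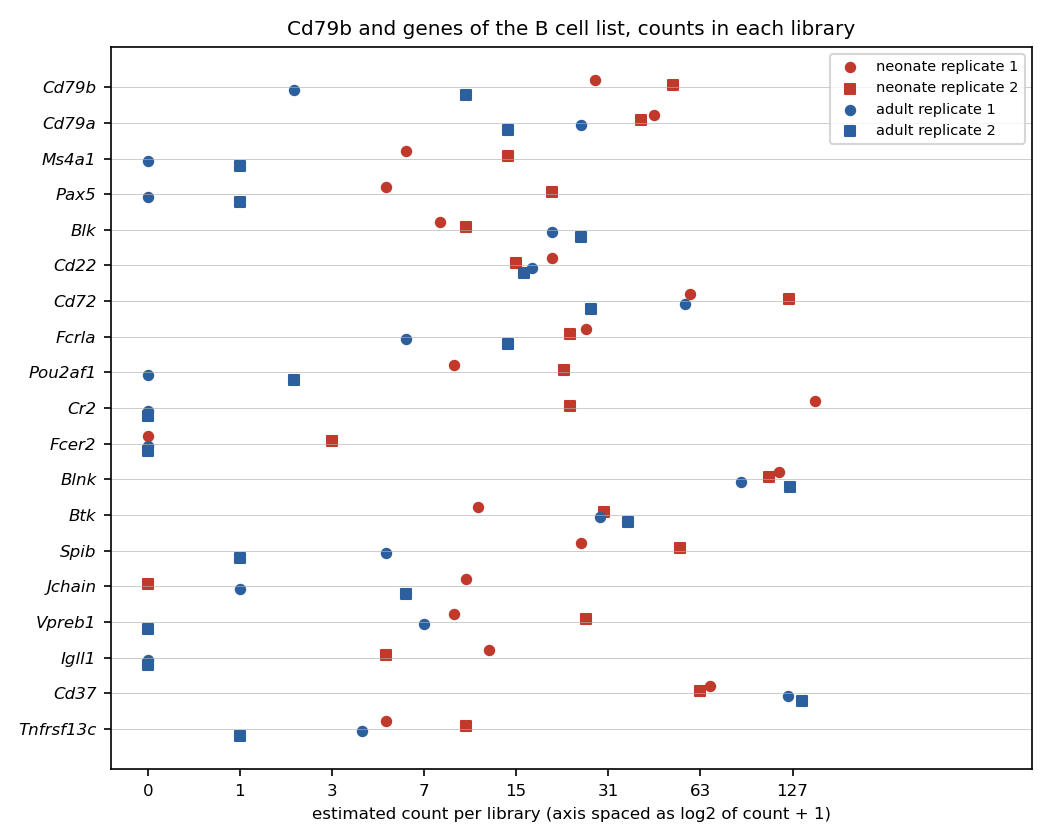
Estimated counts of Cd79b and 18 of the 19 genes of the B cell list in each library, on an axis spaced as log2 of count + 1, with neonates in red, adults in blue, circles for replicate 1 and squares for replicate 2. By CPM, both neonatal libraries lie above both adult ones for Cd79b and 10 of these 18, and below them for Blk and Cd37, so that 66.7% of the 18 do not overlap against 70.3% of all genes with a count.

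Cytotoxic genes were scarce at both ages. Of 20 in the list, 18 were in the table, and Gzmb and Klrb1 had 0 counts in every library. Their summed level ran from 3.87 to 4.21 CPM in neonates and from 4.02 to 4.08 CPM in adults. A single gene was tested, Ccl5, a chemokine of T and NK cells, which had 50 and 58 counts in neonates and 24 and 22 in adults (log2 fold change -1.40, adjusted p = 0.013 by edgeR's quasi-likelihood test). It reached 1 CPM in neonates only. The call was lost, with the fold little moved, without adult replicate 1 (-1.44, adjusted p = 0.084 in edgeR) or adult replicate 2 (-1.35, adjusted p = 0.10 in edgeR). With no filter 16 genes of the list had a value, 5 of them negative, and the median was 0.51. Klrk1, an activating receptor of NK cells named after its values were seen, had 3 and 3 counts in neonates and 25 and 16 in adults and was not called (log2 fold change 2.58, adjusted p = 0.052 in edgeR). With no filter and scaled to library size alone, 1 gene of the list was called higher in adults and Ccl5 was not called.

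Genes of other cells that could carry Ptprc and Cd4 were measured in the same fit. All 15 macrophage genes of the list were tested, 5 were called higher in adults (Csf1r, Adgre1, Cd163, Lyz2 and Siglec1, the last of which reached 1 CPM in adults only), with a median log2 fold change of 0.84. At an adjusted p under 0.05 with no minimum fold, which 62.3% of all genes tested passed, 10 were higher in adults and 1, Aif1, lower by edgeR's quasi-likelihood test. Csf1r, the receptor that macrophages need to survive, was at 1.24 and Adgre1, which encodes F4/80, at 1.08, while Cd68, a lysosomal protein, was at -0.32 and not called. The summed level of the list was 167 to 185 CPM in neonates and 444 to 464 CPM in adults. The 5 calls became 3 without neonate replicate 1 or without adult replicate 1, 8 without neonate replicate 2 and 9 when scaled to library size alone.

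The list of dendritic cell and MHC class II genes had 10 of 12 genes tested, with 9 called higher in adults and a median log2 fold change of 2.38. Of these, 3 (Ciita, Xcr1 and Cd86) reached 1 CPM in adults only, and with no filter 7 of 12 were called higher with a median of 1.99. Cd74, the invariant chain of MHC class II, was at 2.39, Ciita, the master regulator of these genes, at 3.01 and RT1-Da, a class II alpha chain, at 2.74, against 2.86 for Cd4, which binds MHC class II. Summed levels were 37.1 to 43.0 CPM in neonates and 217 CPM in both adult libraries. The part of these cells in the levels of Cd4 and Ptprc was not tested.

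**Figure D4:**
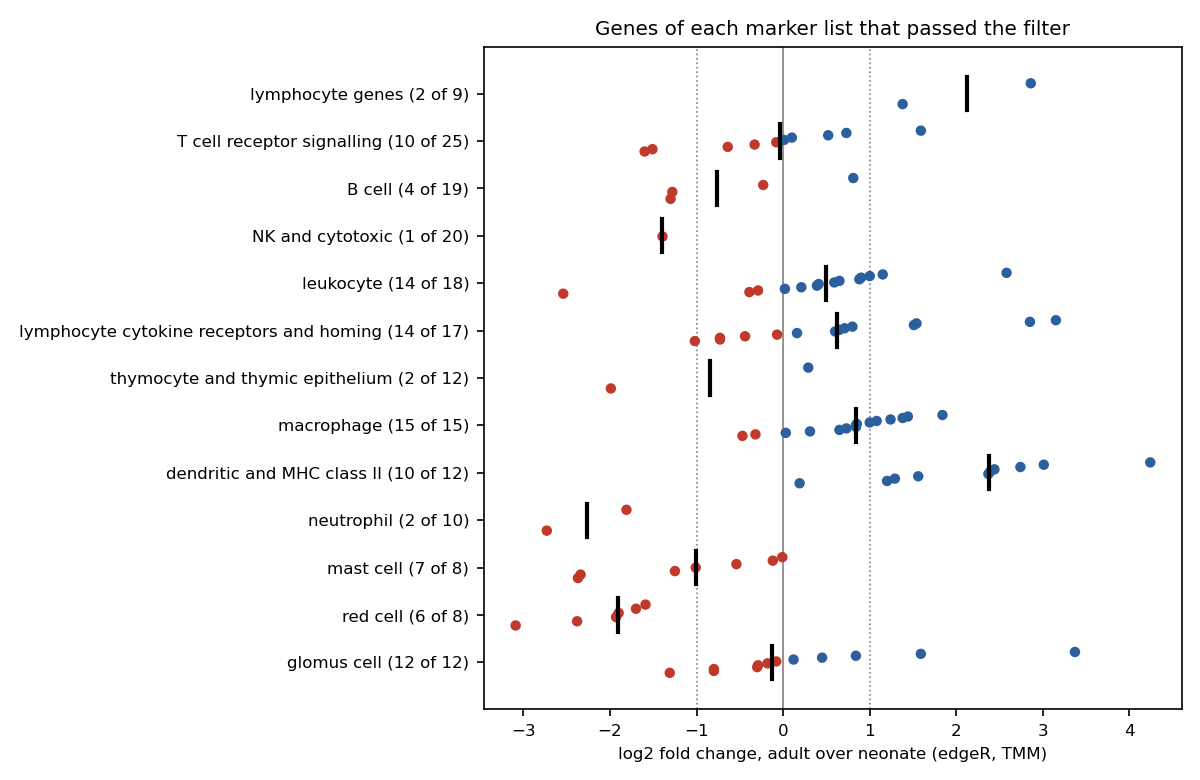
Log2 fold changes of adults over neonates from edgeR after TMM for the genes of each list that passed the filter, a point per gene, blue above 0 and red below, with black bars for list medians and dotted lines at 2-fold. Labels give the genes tested of those listed, and the parathyroid list, which has 0 counts of Pth and Gcm2 in adults, is not drawn. Ptprc and Cd4 lie on the adult side with most macrophage and MHC class II genes, while the genes of T cell receptor signalling are spread on both sides of 0.

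Of 18 further leukocyte genes 17 were in the table and 14 were tested, with a median of 0.50. In adults 1 was called higher (Selplg, which reached 1 CPM in adults only) and 1 lower (Cd52, which did so in neonates only). Over all genes tested 13.2% were called higher and 7.68% lower. Ptprcap, a protein bound to CD45, had 23, 26, 41 and 29 counts and was not tested, Coro1a, an actin regulator of leukocytes, was at -0.39 and Laptm5, a lysosomal protein of blood cells, at 0.88. Higher calls in this list numbered 5 when scaled to library size alone and 4 without neonate replicate 1. Among 17 genes of lymphocyte cytokine receptors and homing, 14 were tested, 4 were called higher in adults (Ccl21 and Klf2, and Il7r and Il2ra, which reached 1 CPM in adults only) and 1 lower (Il15), which was not called when neonate replicate 2, adult replicate 1 or adult replicate 2 was left out. Il2rg, the common gamma chain, was at -0.07, Il7r, the receptor for interleukin 7, rose from 1 and 10 counts to 54 and 37 (log2 fold change 2.85, adjusted p = 0.0071 by edgeR's quasi-likelihood test), and Il2ra rose from 6 and 4 counts to 57 and 45 (log2 fold change 3.15, adjusted p = 0.00081 in edgeR).

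Markers of other neck tissue and of blood were counted beside these. Of the thymic genes, Foxn1 and Aire had 0 counts in every library. Krt5, a keratin of many epithelia, had 52 counts in neonate replicate 1 and 1, 0 and 0 elsewhere (called lower in adults with no filter, adjusted p = 0.027 in edgeR). Prss16 had 6, 0, 2 and 0. Psmb11 had 0 counts in both neonatal libraries and 3 in each adult library, and Ccl25 had 4 and 0 in neonates and 1 and 8 in adults. With no filter these 2 were on the adult side (log2 fold change 4.58 and 0.99) and were not called. Rag1, the recombinase of developing lymphocytes, had 6 and 23 counts in neonates and 1 and 2 in adults, Rag2 had 5 counts in neonate replicate 2 and 0 elsewhere, and Dntt had 14, 0, 5 and 9. Of 12 in that list 2 were tested and 1, Arpp21, was called lower in adults, at 2.71 and 5.01 CPM in neonates and 1.46 and 0.827 CPM in adults. The summed level was 13.6 to 13.8 CPM in neonates and 12.4 to 15.2 CPM in adults. Most of it was Cd1d1, the other gene tested, at 8.99 and 7.82 CPM in neonates and 10.7 and 13.7 CPM in adults, so the sum says little about the rest of the list. Glycam1, a marker of lymph node vessels, had 0 counts in every library. Other homing genes of its list did have counts, in the order neonate and then adult replicates. Madcam1 had 257, 329, 206 and 192, Cxcl13 had 534, 602, 741 and 691, and Ccl21 had 6208, 7792, 21258 and 23576. Whether the samples held lymph node tissue was not tested. All 6 red cell genes tested, led by Hba-a1, Hba-a2 and Hbb, and both parathyroid genes tested, Pth and Gcm2 (Casr was not tested), were called lower in adults. So were 2 of 2 neutrophil genes, S100a8 and S100a9, which reached 1 CPM in neonates only and of which 1 was called without adult replicate 1 (Mpo, with 116 counts in neonate replicate 1 and 11 in neonate replicate 2, was not tested), and 4 of 7 mast cell genes, Cpa3, Cma1, Tpsb2 and Hdc, while Kit was at -0.12 and Ms4a2 at -0.01. In the glomus cell list 2 of 12 were called higher, Kcnk9 among them, and 1, Dbh, lower, a call lost without neonate replicate 1, with Th at 0.45 and Ddc at -0.18. The part of blood and neighbouring tissue in the levels of Cd79b and the B cell genes was not tested.

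The genes whose pattern over the 4 libraries was nearest to that of Ptprc, by Euclidean distance of centred log2 CPM among 13843 genes, were Fam214b (0.0627), Cdc14b (0.0634) and LOC100909657 (0.069). For Cd79b they were Acr (0.446), Muc1 (0.516) and AABR07030914.1 (0.686), and for Cd3e, with at most 9 counts in a library, Iglon5 (0.282), Chrm1 (0.331) and Zbtb3 (0.380). Such a distance describes likeness over 4 values and nothing more.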

How the data were processed

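Total RNA of pooled CBs was sequenced with poly A+ selection, and 4 libraries were used. The authors deposited estimated counts per gene, neither normalized nor filtered, made by trimming reads, aligning them with STAR to the rat reference Rnor_6.0 and quantifying with Salmon 1.5.2 (version per the labels' processing notes). Whether reads were counted by strand is not given in the sources used here. Such counts are not corrected for gene length, so levels of different genes were not compared.

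Estimated counts were rounded, 636 genes that a RefSeq table of another assembly lists, by symbol, under a biotype other than protein-coding were dropped (13665 of 32883 genes had no biotype there and were kept), and a gene had to reach 1 CPM in 2 or more libraries. Adults were compared with neonates in R 4.3.3 by edgeR 4.0.16 (TMM, quasi-likelihood test, no covariates), and p-values were adjusted by Benjamini-Hochberg across the 13843 genes that remained. Standard errors of log2 fold changes were worked back from edgeR's F statistic, as the absolute log2 fold change over the square root of F. Counting intervals are exact at 95%, and CPM use the library totals. Alternatives used DESeq2 1.42.0, limma 3.58.1 (voom), other scalings, other filters, no minimum fold, a replicate block and each library left out. Libraries of an age differed from each other beyond sampling noise, with a chi-square per degree of freedom of 36.7 in neonates and 17.1 in adults. In simulated data of 13843 genes with 200 changed, adult over neonate, edgeR called 199 with the right sign and 0 unchanged genes. These data had the same dispersion for every gene and held only genes past the filter. They check how the test was run and cannot show how reliable the calls in these libraries are.

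The 9 genes and the marker lists were chosen with earlier results of these data known, so no test of a list was made. All 9 genes are named. From the T cell, B cell and cytotoxic lists the genes called are named, up to 6 a list, and from other lists the first 3. For Ptprc, Cd3e and Cd79b the 3 nearest genes are named, by distance of log2 CPM with a prior count of 2. Other names were added after their values were seen. Some genes of the lists are counted there but not reported here by name.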

Additional observations from a re-analysis of the deposited data

How the results depend on the processing

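Ptprc kept its direction and its call under all 13 alternatives run (log2 fold change 1.16 to 1.63), and Cd4 under the 12 that could give a value (2.78 to 3.10). Apart from the fit with no filter, where it was at 2.88, Cd4 entered these through the adult libraries alone. Its direction there was therefore set by its entry. With a mean of at least 5 CPM Cd4 was not tested, so 1 of the 9 genes was called higher in adults, and with no filter 1, Cd79b, was called lower. That filter at 5 CPM left 1169 genes higher and 654 lower over the whole table, from 1822 and 1063, and 13 higher and 13 lower over the other marker lists, from 22 and 23, as fewer genes were tested. With no minimum fold change the table had 4300 higher and 4325 lower, and the other marker lists 38 higher. Scaled to library size alone, 704 genes of the table were lower in adults. Relative to the summed leukocyte list, most of which was Cd48, in place of Ptprc, the log2 difference was 2.35 for Cd4 and -0.56 for Cd3g. The cause was not tested.

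Of the genes below the filter, fitted with no filter in alternatives chosen after seeing the data, the sign was unstable for Cd2 (-0.04 in limma-voom, -0.09 without neonate replicate 2 and -1.11 to 0.91 when libraries were left out), for Cd8a (-0.68 in limma-voom, -0.06 with the replicate block and -4.44 to 1.51 when libraries were left out) and for Cd3g (-0.85 to 0.81 when libraries were left out). The other genes below the filter kept their sign. Leaving out a library leaves 1 in an age, which is then assumed to vary like the other age.

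The replicate numbers are not said to pair the libraries, and the difference between replicates 1 and 2 correlated at -0.0154 between ages over 13843 genes. With the replicate number as a block, 1866 genes were higher and 1071 lower in adults, and Ptprc and Cd4 stayed called. No symbol of the lists had more than 1 entry, so summing entries gave no other value. At this depth, 7 of the 9 genes were too low for a filtered test.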
